A study of Mus musculus with 32 samples.

Results

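The IL-20 subfamily cytokine genes Il19, Il20 and Il24 were followed across sham and HDM skin of the NC/Nga strain, inbred mice known for a tendency to dermatitis. The 3 genes were found by their symbols in the platform annotation, among 19505 genes with a symbol. Each symbol had a single row on the array, so no choice between rows arose. The samples were 8 mm punches of dorsal skin and of ear, 1 array per sample, in 4 groups of 8. The groups were sham back skin, HDM back skin, sham ear and HDM ear, and the series title speaks of dermatitis induced by HDM. The labels give neither the meaning of HDM, nor what the sham animals received, nor age, sex, dose or duration. They do not say whether a back sample and an ear sample with the same mouse number came from 1 animal.

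IL-19, IL-20 and IL-24 are secreted cytokines of the IL-10 family and are encoded side by side, next to Il10. They signal through the receptor of IL-20RA and IL-20RB, and IL-20 and IL-24 also through that of IL-22RA1 and IL-20RB. Both receptors activate JAK kinases and STAT3. Keratinocytes carry these receptors and are the best known target cells in skin. There the cytokines are known for driving epidermal thickening and the expression of stress keratins and antimicrobial proteins. Myeloid cells and keratinocytes are known sources.

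The stretches before the annotated starts of Il19 and Il20 are shown because these neighbouring genes moved in opposite directions in back skin. They come from RefSeq, build GRCm38.p6, which listed a promoter for 2 of the 3 genes. Each run holds the 250 bases before the start, 5′ to 3′ on the minus strand, at chr1:130940116-130940365 for Il19 and chr1:130911297-130911546 for Il20. The start listed for Il19 lies inside the annotated span of the gene. Capitals mark matches to the searched motifs.

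Il19: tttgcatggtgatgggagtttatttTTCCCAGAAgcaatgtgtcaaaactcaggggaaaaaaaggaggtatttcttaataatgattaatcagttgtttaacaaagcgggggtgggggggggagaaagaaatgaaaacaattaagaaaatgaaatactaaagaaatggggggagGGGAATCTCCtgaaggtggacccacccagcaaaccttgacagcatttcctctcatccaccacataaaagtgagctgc

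Il20: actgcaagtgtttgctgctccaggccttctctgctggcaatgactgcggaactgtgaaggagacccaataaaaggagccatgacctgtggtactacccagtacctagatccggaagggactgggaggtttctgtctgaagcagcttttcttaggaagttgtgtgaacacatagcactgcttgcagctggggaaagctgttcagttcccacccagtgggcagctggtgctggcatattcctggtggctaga

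The motifs searched on both strands were AP-1 (TGACTCA), STAT (TTCNNNGAA), the TATA box (TATAAA) and the NF-kB consensus. The Il19 stretch held a STAT match, TTCCCAGAA, beginning 225 bases before the start, and an NF-kB match, GGGAATCTCC, beginning 77 bases before it. The STAT motif reads the same on both strands, and the 2 matches do not overlap. Of 32851 RefSeq promoter stretches of the same length, 7.02% held the STAT motif and 7.25% the NF-kB motif. The AP-1 motif was held by 4.46% and the TATA box by 12.4%. The Il20 stretch held none of the 4 motifs. These are matches of letters in this window and describe no binding.

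Values are log2 levels after RMA, the authors' background correction, normalization and summary. Background means the middle value of an array's 5222 negative control rows, and it lay between 4.43 and 5.38. By definition 50% of the negative control rows lie above that level, so the share of them below a value is given where it matters. Keratinocyte markers, 8 of 8 measured, were above background on every array, as a skin sample requires. Each array correlated with the rest of its group at 0.975 to 0.994. Differences are given with their standard error from a limma fit over all 22206 rows that are not array controls, with n = 8 per group. A difference was called where its p, adjusted by Benjamini-Hochberg over those rows, was under 0.05. The standard error pools the spread of the 4 groups, which was wider in HDM ear than elsewhere for Il19, Il24 and Il20rb. In whole skin, fewer cells of a type and less RNA per cell cannot be told apart.

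HDM skin carried more Il19 and Il24 message at both sites, and less Il20 message in back skin. In back skin all 3 genes were called, 2 higher and 1 lower, where 14.7% of all rows were called, 6.18% higher and 8.56% lower. In ear 2 were called higher and 0 lower, where 31.9% of all rows were called, 16.4% higher and 15.5% lower. With array medians made equal the called rows in back skin were 2433 higher and 1392 lower in place of 1372 and 1901, and the median difference over all rows went from 0.01 to 0.13. The calls of the 3 genes did not change with that scaling.

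Il19, the member known as a product of activated monocytes and keratinocytes, was below background on all 16 sham arrays. In sham back skin its log2 level was lowest at 3.15, with a median of 3.67 and a highest value of 4.35. In HDM back skin it ran from 5.04 over a median of 6.24 to 7.83, above background on 8 of 8 arrays. The groups did not overlap, and the lowest HDM array lay 0.69 above the highest sham array. Il19 rose by 2.50 ± 0.72 in back skin (adjusted p = 0.0163). The exact two-sided permutation test over the 16 back arrays gave p = 0.000155, the smallest it can give. Measured against the background of the sham arrays, Il19 was at least 2.85-fold higher. With dim values lifted to the background level, the difference was 1.51, which missed the threshold in the fit over all arrays (adjusted p = 0.196). It passed in a fit of the 16 back arrays alone (adjusted p = 0.00204). The level in HDM back skin was modest, since its median array lay above 76.4% of the negative control rows.

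In ear the difference in Il19 was larger and the HDM mice varied widely. Sham ears ran from 3.14 over a median of 3.33 to 3.91. HDM ears ran from 5.16 over a median of 10.54 to 12.80, all 8 above background. The lowest HDM ear lay 1.25 above the highest sham ear. Il19 rose by 6.33 ± 0.72 (adjusted p = 7.74e-08), with p = 0.000155 in the exact permutation test, and was at least 22.7-fold higher against background. The median HDM ear lay above 97.8% of the negative control rows. The SD was 2.89 in HDM ear against 0.25 in sham ear. The HDM effect on Il19 was larger in ear than in back skin by 3.83 ± 1.02 (adjusted p = 0.0137). Of the 3 genes 2 were called higher in ear in that comparison of effects, where 10.1% of all rows were called, 6.77% higher and 3.37% lower. With array medians made equal those called rows were 1105 higher and 1310 lower in place of 1503 and 748.

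Il24, first known as a gene of differentiating melanoma cells and of activated T helper cells, was also below background on all 16 sham arrays. In sham back skin it ran from 3.08 over 3.84 to 4.70, and in HDM back skin from 4.30 over 5.33 to 7.65. Of the HDM back arrays 5 of 8 were above background, and the groups overlapped, although all 8 HDM arrays lay above the sham mean. Il24 rose by 1.94 ± 0.57 in back skin (adjusted p = 0.0185, exact permutation p = 0.000622) and was at least 2.05-fold higher against background. With dim values lifted to the background level the difference was 1.18 and missed the threshold, both over all arrays (adjusted p = 0.122) and over the 16 back arrays (adjusted p = 0.0573).

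In ear Il24 ran from 3.47 over 3.88 to 4.50 in sham mice and from 4.06 over 7.32 to 8.94 in HDM mice. On 6 of 8 HDM arrays it was above background, and the 2 below it, mice 3 and 8, lay in the range of the sham ears. Il24 rose by 3.02 ± 0.57 (adjusted p = 9.68e-05, exact permutation p = 0.00124) and was at least 3.40-fold higher against background. The HDM effect differed between ear and back skin by 1.08 ± 0.81 (adjusted p = 0.443). The 95% interval of that difference, -0.56 to 2.73, holds both no difference and an effect in ear well above that in back skin.

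Il20, known as a keratinocyte product with epidermal activity, showed another pattern. It was above background on 8 of 8 sham back arrays, from 5.78 over a median of 6.36 to 7.26, and on 0 of 8 HDM back arrays, from 2.92 over 3.82 to 4.38. The groups stood 1.40 apart. Il20 fell by 2.64 ± 0.30 on the log2 scale in back skin (adjusted p = 1.89e-07), with p = 0.000155 in the exact permutation test, and was at least 2.90-fold lower against background. The sham back level was low in itself, since the median array lay above 79.5% of the negative control rows.

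In ear Il20 stood close to background in both groups. Sham ears ran from 3.40 over 4.96 to 6.42, with 3 of 8 above background, and HDM ears from 3.89 over 4.73 to 5.39, with 4 of 8 above. The difference was -0.20 ± 0.30 (adjusted p = 0.681), with a 95% interval from -0.81 to 0.41. With dim values lifted to the background level the difference was -0.45 (adjusted p = 0.0274). The backgrounds of the sham ears, 5.09 to 5.38, all lay above those of the HDM ears, 4.61 to 4.98. Il4, below background on every array, differed by -0.38 in ear when lifted, so the -0.45 mixes Il20 with the difference of backgrounds. Without sham mouse 1, the highest sham ear, the difference in Il20 as measured was 0.0068 (adjusted p = 0.99). The HDM effect on Il20 was higher in ear than in back skin by 2.44 ± 0.42 (adjusted p = 0.000378). Since HDM back skin lay below background on all 8 arrays, the size of that difference is uncertain, and with dim values lifted to the background level it was 1.08 (adjusted p = 0.00137).

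**Figure D1:**
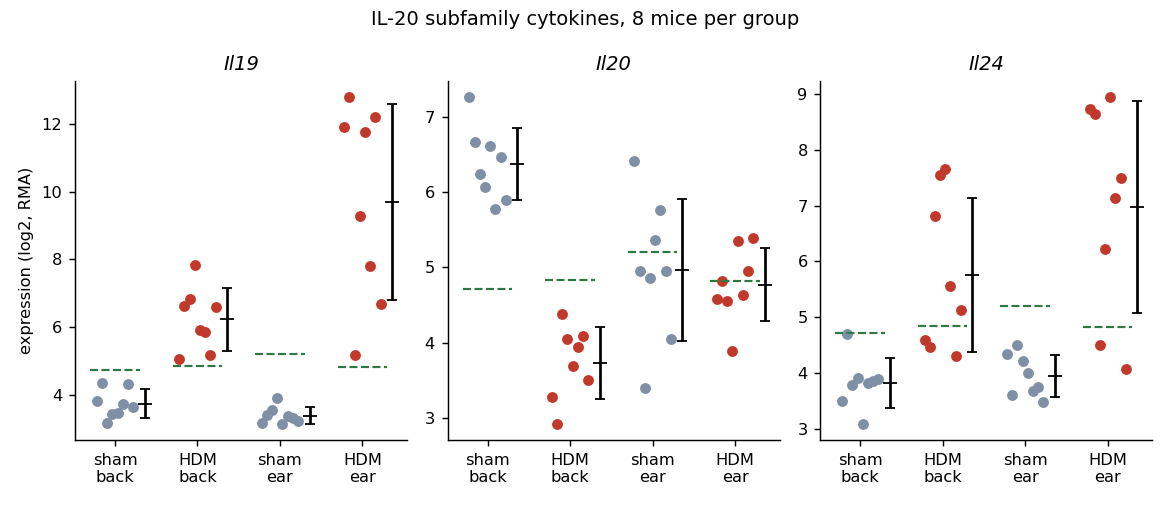
Log2 level of Il19, Il20 and Il24 on each array (points, 8 mice per group), with the group mean and SD beside the points and the mean negative control median of the group as a dashed line. Il19 stands above background on every HDM array and below it on every sham array, and Il20 stands above background throughout sham back skin only, with 0 of 8 arrays above it in HDM back skin.

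Without the agent, only Il20 of the 3 genes was called between back skin and ear. Sham ear minus sham back skin was -1.40 ± 0.30 for Il20 (adjusted p = 0.000455), with 1 of 8 ears above the mean of back skin. Among all rows 29.7% were called between the sham groups, 15.6% higher and 14.1% lower in ear. With array medians made equal those calls were 5063 higher and 2462 lower in ear, in place of 3469 and 3124. For Il19 and Il24 both sham groups lay below background, so no fold is given. Between the HDM groups, Il19 was higher in ear by 3.48 ± 0.72 (adjusted p = 0.00034) and Il20 by 1.04 ± 0.30 (adjusted p = 0.00831), where 28.0% of all rows were called, 16.8% higher and 11.2% lower. That difference in Il20 lies at background, and it was 0.145 with dim values lifted to the background level (adjusted p = 0.845). Il24 differed between the HDM groups by 1.21 ± 0.57 (adjusted p = 0.117). Without HDM ear mouse 3 the difference was 1.57 (adjusted p = 0.0302), and without mouse 8 it was 1.63 (adjusted p = 0.0187). By group mean, the order of Il19 was therefore HDM ear, HDM back skin and then the sham groups, which both lay below background. The 2 HDM groups overlapped, with 7 of 8 HDM ears above the HDM back mean, and the exact permutation test between them gave p = 0.00855. For Il20, sham back skin came first, while sham ear and HDM ear did not differ beyond their spread, and HDM back skin was lowest as measured.

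The receptor genes moved in both directions. Of 5 receptor genes, 1 rose and 2 fell at each site, where 14.7% of all rows were called in back skin and 31.9% in ear. Il20ra, the chain specific to the receptor of all 3 cytokines, ran from 6.66 over 7.40 to 7.99 in sham back skin and from 3.32 over 4.24 to 5.16 in HDM back skin. Of the HDM back arrays 2 of 8 were above background, and the groups stood 1.50 apart. Il20ra fell by 3.06 ± 0.29 (adjusted p = 7.71e-09), or by 2.54 with dim values lifted to the background level. In ear it ran from 8.78 over 9.38 to 9.69 in sham mice and from 6.00 over 7.46 to 8.60 in HDM mice, and fell by 1.89 ± 0.29 (adjusted p = 7.37e-06), again with no overlap. The HDM effects at the 2 sites differed by 1.18 ± 0.41, which was not called (adjusted p = 0.0652). Leaving out dim rows gave an adjusted p of 0.0471, while lifting dim values to the background level gave a difference of 0.65 (adjusted p = 0.141).

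Il20rb, the chain that both receptors share, was well above background on all arrays. In back skin it ran from 11.67 over 12.47 to 13.70 in sham and from 11.00 over 11.16 to 11.58 in HDM mice. The groups did not overlap, yet stood only 0.09 apart. Il20rb fell by 1.34 ± 0.41 there (adjusted p = 0.0254). Without sham back mouse 1, its highest array, the difference was -1.18 (adjusted p = 0.0588), and without sham back mice 1 and 2 it was -1.09 (adjusted p = 0.101). The exact permutation test on all arrays gave p = 0.000155. In ear it ran from 13.78 over 14.11 to 14.41 in sham mice and from 9.38 over 12.07 to 13.57 in HDM mice, and fell by 2.20 ± 0.41 (adjusted p = 9.75e-05), without overlap. The HDM effects at the 2 sites differed by -0.86 ± 0.59 (adjusted p = 0.395, 95% interval -2.05 to 0.34).

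Il22ra1, which pairs with IL-20RB for IL-20 and IL-24 and with IL-10RB for IL-22, did not pass at either site. It ran from 10.41 to 11.33 in sham and from 10.06 to 11.11 in HDM back skin, and from 11.35 to 12.48 in sham and from 11.52 to 12.68 in HDM ear. The differences were -0.20 ± 0.19 in back skin (95% interval -0.59 to 0.18) and -0.06 ± 0.19 in ear (95% interval -0.45 to 0.33). Its groups overlapped at both sites. Il10rb, the chain of the IL-22 and IL-10 receptors, rose by 0.74 ± 0.20 in back skin (adjusted p = 0.0106) and by 0.86 ± 0.20 in ear (adjusted p = 0.00107), with overlapping groups. Il22ra2, a soluble receptor that binds IL-22, differed by -0.54 ± 0.26 in back skin (adjusted p = 0.176), where 1 of 8 HDM arrays was above background, and by -0.13 ± 0.26 in ear (adjusted p = 0.771). In back skin it passed in a fit of the 16 back arrays alone (adjusted p = 0.0361) and in the exact permutation test (p = 0.00824), and the difference was -0.01 with dim values lifted to the background level.

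**Figure D2:**
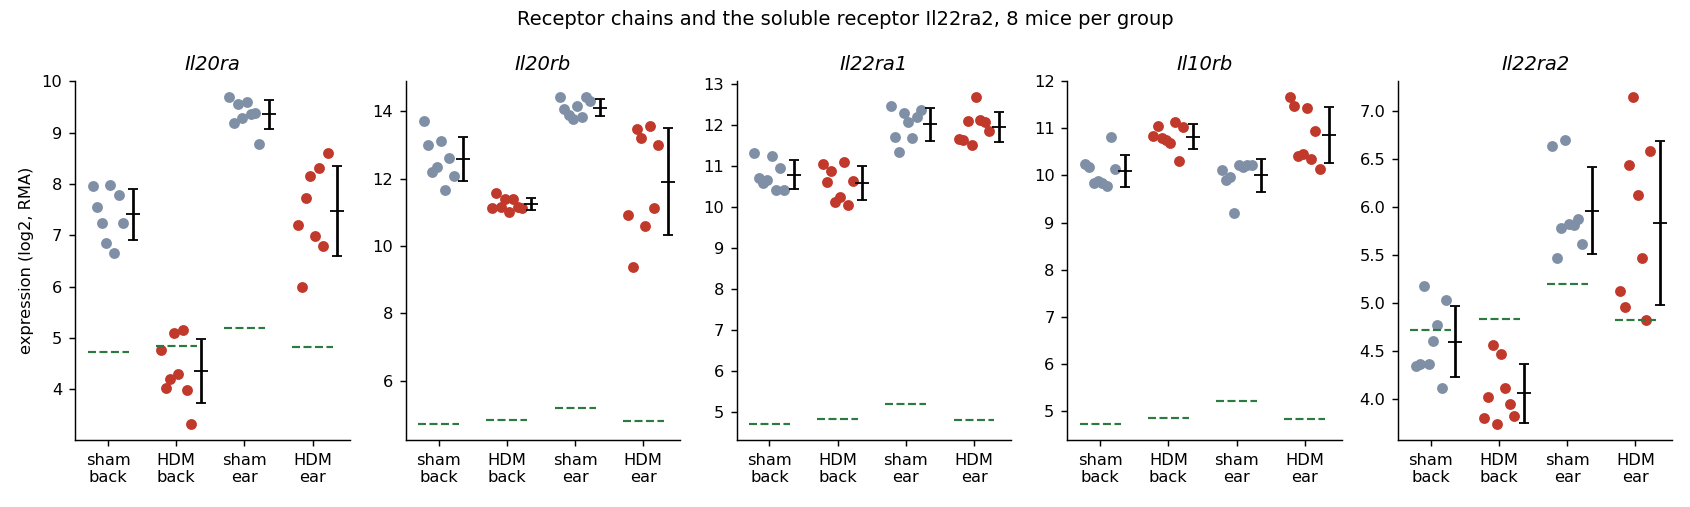
Log2 level of 4 receptor chains and the soluble receptor Il22ra2 on each array (points, 8 mice per group), with the group mean and SD beside the points and the mean negative control median as a dashed line. Il20ra and Il20rb lie lower in HDM than in sham mice at both sites with no overlap, while the Il22ra1 groups overlap.

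Sham ear carried more receptor message than sham back skin. Of the 5 genes 4 were called higher in sham ear, against the 15.6% of all rows given above. Il20ra was higher by 1.94 ± 0.29, Il20rb by 1.52 ± 0.41, Il22ra1 by 1.23 ± 0.19 and Il22ra2 by 1.36 ± 0.26, each with no overlap of the groups. Il10rb differed by -0.09 ± 0.20 (adjusted p = 0.803). Il20 was lower in sham ear. The hair follicle markers differed between the sham groups too, 8 of 8 being lower in ear with a median difference of -8.54, and their part in these site differences was not tested.

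**Figure D3:**
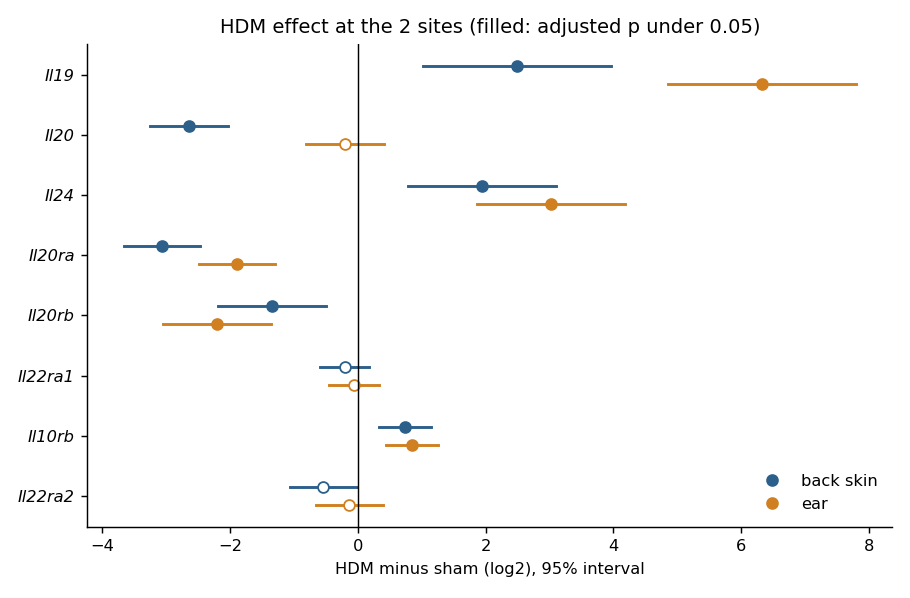
HDM minus sham on the log2 scale with its 95% interval in back skin and ear, for the 3 cytokines, 4 receptor chains and Il22ra2; filled points have an adjusted p under 0.05. Il19 and Il24 lie right of 0 at both sites, Il20ra and Il20rb left of it, and Il20 left of it in back skin, at -2.64 against -0.20 in ear.

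Within HDM ear the arrays spread over much of the scale. In mice 1 to 8, in order, Il19 was 11.92, 12.80, 5.16, 9.29, 11.78, 7.81, 12.21 and 6.68. Mouse 2 was highest and mouse 3 lowest, so that mouse 2 lay 8.19 above its background and mouse 3 only 0.25 above it.

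Il24 was 8.74, 8.65, 4.49, 6.22, 8.94, 7.14, 7.49 and 4.06 in the same order. Mice 3 and 8 were lowest for Il24 and for Il19. Il22, the family member that also uses IL-22RA1, was above background in mice 1, 2 and 5, at 4.99, 7.03 and 7.13, and in no other array of the study. As measured, Il22 rose in ear by 1.74 ± 0.43 (adjusted p = 0.00181), but its group mean lay under background and the difference was 0.27 with dim values lifted to the background level.

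Il20rb and Il20ra were lowest in the mouse with the highest Il19. Il20rb was 10.91, 9.38, 13.48, 13.20, 10.59, 13.57, 11.14 and 13.01 in mice 1 to 8, with mouse 2 lowest. Il20ra was 7.20, 6.00, 7.73, 8.16, 6.98, 8.31, 6.80 and 8.60, with mouse 2 lowest here too. Il10rb was 11.66, 11.47, 10.42, 10.45, 11.44, 10.36, 10.94 and 10.14 in mice 1 to 8. It was thus highest in mice 1, 2, 5 and 7, as was Il19. Il22ra1 had another order, highest in mouse 5, at 12.68, and lowest in mouse 4, at 11.52. Il20 itself spanned only 3.89 to 5.39 in these ears, around background.

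Marker lists moved with these values, and their part in the results was not tested. The mean log2 level of 9 measured neutrophil markers was 12.56, 13.46, 8.05, 9.62, 13.05, 9.09, 12.33 and 8.01 in mice 1 to 8, with mice 3 and 8 lowest as for Il19. That of 9 macrophage and monocyte markers was 12.94, 13.18, 10.44, 11.46, 12.40, 10.81, 12.18 and 10.38. That of 8 keratinocyte markers was lowest in mouse 2, at 16.77, and highest in mouse 8, at 17.52.

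Across the 4 groups the neutrophil list ranged from 5.01 to 7.30 in sham back skin, 9.0 to 10.40 in HDM back skin, 4.10 to 5.35 in sham ear and 8.01 to 13.46 in HDM ear. Of its 9 measured genes 7 were called higher in back skin and 8 in ear, and Camp, a granule gene, was below background on all arrays. For this list and those below, the shares over all rows were 6.18% higher and 8.56% lower in back skin. In ear they were 16.4% higher and 15.5% lower, so 1 called gene in a list is near the background. The macrophage and monocyte list ranged from 9.22 to 10.76, 10.33 to 10.87, 8.77 to 9.34 and 10.38 to 13.18 in the same order, with 1 of 9 called higher in back skin, 3 of 9 without sham back mice 1 and 2, and 9 of 9 in ear. The keratinocyte list ranged from 17.08 to 17.63, 17.09 to 17.39, 16.95 to 17.43 and 16.77 to 17.52. In that list 2 genes rose and 3 fell in back skin, and 3 rose and 1 fell in ear. Among those that fell was Krt15, a basal and hair follicle keratin, by 2.26 ± 0.53 in back skin and by 3.55 ± 0.53 in ear, chosen here after its values were seen. The sebaceous gland list, 7 genes, ranged from 11.32 to 12.73, 8.02 to 9.93, 12.10 to 13.39 and 10.71 to 12.81. All 7 fell in back skin and 1 of 7 in ear. The adipocyte list, 5 genes, ranged from 11.77 to 12.90, 10.76 to 11.62, 9.04 to 9.75 and 6.63 to 8.37, and the skeletal muscle list, 7 genes, from 11.47 to 16.11, 12.42 to 14.22, 11.25 to 13.38 and 8.17 to 10.40. Adipocyte genes fell for 3 of 5 in back skin and 5 of 5 in ear, and muscle genes for 0 of 7 and 7 of 7. Among T cell markers 2 of 7 rose in back skin and 4 of 7 in ear. Among mast cell markers 1 of 7 rose and 2 fell in back skin, and 5 rose in ear. Fibroblast and endothelial lists had at most 3 called genes each at a site. The hair follicle list, 8 genes, ranged from 8.13 to 15.996, 13.36 to 15.22, 4.89 to 7.69 and 4.24 to 6.17, with 0 of 8 called between HDM and sham in back skin, also 0 at an unadjusted p under 0.05 in the limma fit, and 1 of 8 lower in ear. Its lowest sham back arrays were mice 1 and 2, at 8.13 and 12.03. Without these mice, 1 of 8 hair follicle genes and 1 of 7 muscle genes were called lower in back skin. For mast cell markers that count was then 0 of 7. The part of these cell types in the receptor and Il20 results was not tested.

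The other IL-10 family genes were mostly below background. Of 6 measured, 0 were called in back skin by the limma fit, where 14.7% of all rows were called, so this count is near the background. At an unadjusted p under 0.05 the count was also 0, and 4 genes were below background in both back skin groups. In ear 2 were called higher and 1 lower, where 16.4% of all rows were higher and 15.5% lower. Il22, whose values are given above, was among those called higher. Il10, which sits beside Il19, was below background on all but 1 of the 32 arrays, and differed by 0.09 ± 0.22 in back skin and by 0.46 ± 0.22 in ear (adjusted p = 0.115). Ifnl2 and Ifnl3, which encode lambda interferons, were below background on every array. In ear Il10ra, the ligand-binding chain of the IL-10 receptor, rose by 1.31 ± 0.40 (adjusted p = 0.0114), and Ifnlr1, the lambda interferon receptor chain, fell by 1.74 ± 0.30.

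The genes around the cytokine cluster were not called at either site. Of the 5 nearest protein-coding genes on each side in RefSeq, 9 of 10 were measured. The limma fit called 0 of them, where 14.7% of all rows were called in back skin and 31.9% in ear. At an unadjusted p under 0.05 it had 0 in back skin and 1 in ear, which was Il10. On the Il24 side lie Fcmr, Pigr and Fcamr, which encode immunoglobulin receptors. They differed by 0.37 ± 0.23, 0.08 ± 0.22 and -0.42 ± 0.30 in back skin and by 0.30 ± 0.23, 0.10 ± 0.22 and 0.15 ± 0.30 in ear. These values lie at or below background, so a change in these genes could be missed. Fcmr was above it on 1 HDM ear array only and Pigr on 1 HDM back array only. Fcamr was above it on 5 sham back, 1 HDM back, 2 sham ear and 4 HDM ear arrays. Beyond Il10 lies Mapkapk2, a kinase of the p38 pathway, above background on all arrays, which differed by -0.04 ± 0.26 in back skin and 0.18 ± 0.26 in ear. AA986860, Eif2d and Rassf5, also above background throughout, differed by 0.26 or less in size at either site. Dyrk3, a kinase gene, was above background on 1 HDM back array and 2 HDM ear arrays.

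A list of 16 cytokines known to induce the subfamily in skin cells was measured in full. In back skin 7 of the 16 rose, 0 fell and 9 were not called, where 6.18% of all rows were called higher and 8.56% lower, and the median difference was 0.84. In ear 12 rose, 0 fell and 4 were not called, where 16.4% of all rows were higher and 15.5% lower, and the median was 2.49. In the limma fit these counts were the same at an unadjusted p under 0.05. Over all rows the medians were 0.01 and -0.02. With dim values lifted to the background level the list medians were 0.63 and 1.73. Without sham back mice 1 and 2 the count in back skin was 8.

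As measured, Il1b and the IL-36 gene Il1f6 had the largest differences of that list at both sites. Il1b, the inflammasome-processed IL-1, rose by 3.84 ± 0.88 in back skin, and in ear it was at least 64.9-fold higher, since all sham ears were below background. The IL-36 genes Il1f6 and Il1f8 rose by 3.78 ± 0.60 and 2.86 ± 0.35 in back skin and by 6.09 ± 0.60 and 2.71 ± 0.35 in ear. Il6, an acute-phase cytokine, was above background on 4 of 8 HDM ears and at least 2.33-fold higher there. Osm, the gene of oncostatin M, was at least 1.42-fold higher in back skin and 3.13-fold in ear. Il4, Il13 and Il31, type 2 cytokines, were below background on every array, and Tslp differed by -0.04 ± 0.42 in back skin and -0.33 ± 0.42 in ear, neither called.

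Downstream signalling genes differed between the sites. Of 10 measured genes, 0 rose and 2 fell in back skin, where 14.7% of all rows were called, so that this count is near the background. At an unadjusted p under 0.05 in the limma fit the counts were 1 and 4, and the median difference was 0.18. In ear 5 rose and 1 fell, where 31.9% of all rows were called, and the median was 1.19. The fit of the difference called 7 of the 10 higher in ear, where 6.77% of all rows were. In ear Bcl3, an NF-kB cofactor, rose by 4.82 ± 0.46, Socs3, the feedback inhibitor induced by STAT3, by 3.68 ± 0.51 and Socs1, another inhibitor, by 2.29 ± 0.38. Jak2, Stat3 and Tyk2, which relay cytokine signals, differed there by 1.69 ± 0.24, 1.65 ± 0.22 and -0.62 ± 0.18, all called.

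In back skin Socs2, a further inhibitor, fell by 0.82 ± 0.23 and Pim1, a STAT-induced kinase, by 0.54 ± 0.14. Stat3 differed by 0.44 ± 0.22 (adjusted p = 0.195) and Socs3 by 0.58 ± 0.51 (adjusted p = 0.508). Without sham back mice 1 and 2, Stat3 and Bcl3 were called higher there, by 0.79 and 2.00 (adjusted p = 0.00242 and 0.00031), and Socs2 was no longer called (adjusted p = 0.0709).

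A further list holds keratinocyte genes that these receptors' ligands raise in culture. Like the other lists it was chosen with earlier results of these data known, and what moved its genes here was not tested. Of 14 measured, 10 rose, 1 fell and 3 were not called in back skin, where 6.18% of all rows were higher and 8.56% lower, and the median difference was 4.25. In ear 12 rose, 1 fell and 1 was not called, where 16.4% of all rows were higher and 15.5% lower, and the median was 6.46. With dim values lifted to the background level the medians were 4.11 and 4.67. The gene that fell is Il20rb itself, which that list also holds. Without sham back mice 1 and 2 the back skin counts were 11 and 0.

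The largest differences lay among antimicrobial genes. S100a9, S100a8 and Defb3 rose by 8.57 ± 0.84, 7.69 ± 0.79 and 7.30 ± 0.69 in back skin, and by 12.03 ± 0.84, 11.81 ± 0.79 and 11.86 ± 0.69 in ear. S100a8 and S100a9 are also made by neutrophils in quantity and stand on the neutrophil list too. Tgfa, an EGF receptor ligand, was called at neither site (0.30 ± 0.38 and 0.88 ± 0.38).

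Genes that the same ligands lower in culture moved in both directions. Of 5 measured, 1 rose and 2 fell in back skin, or 1 and 1 without sham back mice 1 and 2, and 2 rose and 2 fell in ear. Over all rows 14.7% were called in back skin and 31.9% in ear. Lor, which encodes loricrin, fell by 1.23 ± 0.38 in back skin and by 1.76 ± 0.38 in ear. In back skin its adjusted p was 0.111 without sham back mice 1 and 2. Krt10, a suprabasal keratin, fell by 0.57 ± 0.14 in back skin. Krt1, its partner, rose by 2.05 ± 0.22 in ear, and Dsc1, a desmosomal cadherin, rose by 0.62 ± 0.14 in back skin and 0.75 ± 0.14 in ear. Ivl, which encodes involucrin, fell by 0.67 ± 0.23 in ear.

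**Figure D4:**
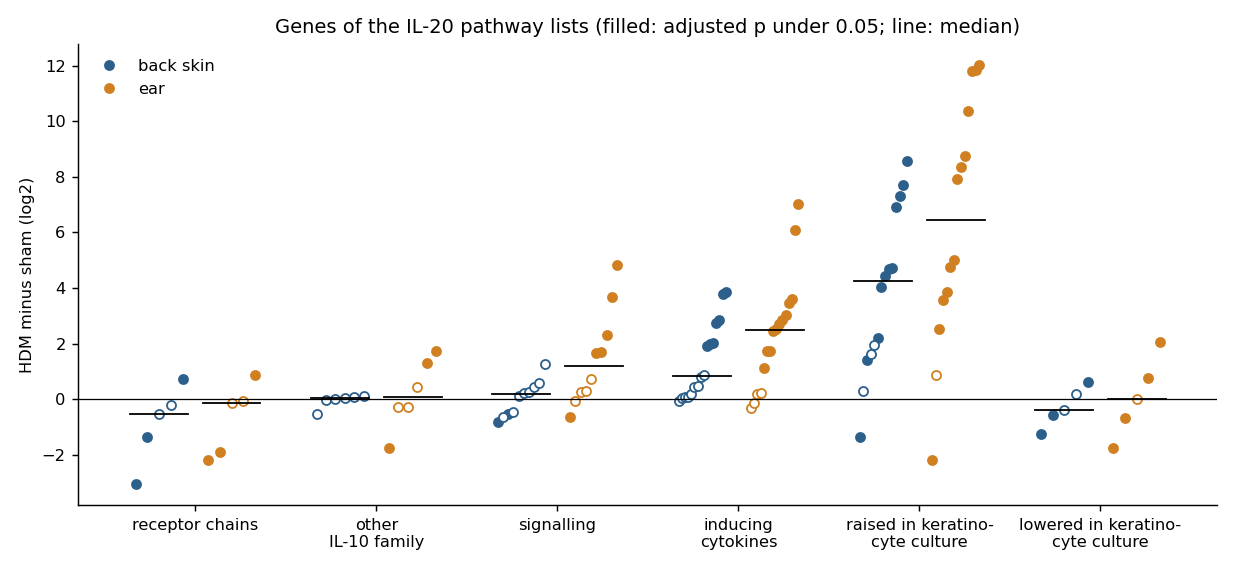
HDM minus sham on the log2 scale for each measured gene of 6 lists around the IL-20 subfamily, in back skin and ear; filled points have an adjusted p under 0.05 and the line is the list median. The inducing cytokines have medians of 0.84 in back skin and 2.49 in ear, and the keratinocyte genes raised in culture medians of 4.25 and 6.46.

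Genes whose log2 values ran most alike with a member were ranked by Pearson's r over the 32 arrays, among 12367 genes above background on at least 8 arrays. The arrays share their 4 groups, so r mostly measures a like pattern of group means and is given as a description. For Il19 the 5 highest were Srgn (0.962), a proteoglycan of blood cell granules, Retnlg (0.962), a resistin-like gene of myeloid cells that stands on the neutrophil list, Tarm1 (0.953), a myeloid receptor, Chil3 (0.951), a chitinase-like protein of macrophages, and Plaur (0.951), the urokinase receptor. For Il24 they were Trem1 (0.948), a myeloid activating receptor, Osm (0.941), Hdc (0.939), which makes histamine, Mrgpra2a (0.933), a Mas-related receptor, and Acod1 (0.926), which makes itaconate. All 10 were called higher at both sites, which largely follows from the ranking on these same arrays. Srgn, Plaur and Hdc rose by 2.33, 2.31 and 3.06 in back skin and by 4.83, 4.84 and 5.40 in ear. The other 7 were below background on all sham ear arrays, and in ear they were at least 3.13-fold (Osm) to at least 69.5-fold (Retnlg) higher.

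Il19 and Il24 themselves ran alike with r = 0.897, which placed Il24 89th for Il19 and Il19 20th for Il24. Il20 had r = -0.31 with Il19 and -0.35 with Il24. The genes most like Il20 were Crygn (0.877), a crystallin gene, Serpina3j (0.849), a serine protease inhibitor, Cyp2g1 (0.830), a cytochrome P450, Snap91 (0.824), a clathrin assembly gene, and Oat (0.806), ornithine aminotransferase. All 5 fell in back skin, which again largely follows from the ranking. The falls were 1.47 for Oat, 2.71 for Snap91, 4.13 for Crygn and 7.85 for Cyp2g1. Serpina3j, below background on all HDM back arrays, was at least 22.5-fold lower. In ear Serpina3j alone of the 5 was called, at -1.20 ± 0.38 (adjusted p = 0.0155), and Crygn differed by 0.25 ± 0.32.

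Over the 8 HDM ear arrays alone, where 8 points give high values by selection among 12367 genes, the gene most like Il19 was S100a9 (r = 0.991) and the next were Ggact, Cyp7b1, Cycs and Pgam1 (0.989 to 0.986). For Il24 they were Hmmr (0.986), Mmp9, Srsf2, Atp6v1g1 and B4galt3 (0.985 to 0.980). Mmp9, a gelatinase of neutrophils among other cells, rose by 4.03 ± 0.76 in back skin and by 5.06 ± 0.76 in ear. For Il20, which lay near background in these ears, they were Ptger3 (0.957), Ablim1, Cd163l1, Ccdc126 and Wdfy3 (0.955 to 0.913).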

How the data were processed

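Total RNA from skin punches (100 ng per sample, kept in RNAlater for at least 18 hours) was labelled with biotin and measured on 32 arrays, named in the series as Mouse Clariom D. The deposited values are log2 expression levels, which the authors made by RMA. The submitters' processing notes name the Transcriptome Analysis Console as the software. Versions and the genome build were not given in the sources used here. The values run from 1.71 to 19.93, a wide range for RMA. A later rescaling would distort the folds. If it kept the order of values, groups that do not overlap would keep their direction. Differences of effects between the sites depend on the scale, and this was not tested.

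Of 28846 rows, 5222 negative control and 1418 other control rows were left out, which left 22206. Symbols came from the platform annotation (19572 rows). A mean per group was fitted with limma 3.58.1 in R 4.3.3 (two-sided, no covariate), after a test on simulated data. Where 1 group lay below background on all arrays, the fold is the brighter group's mean over the dim group's mean background, as "at least". The number of arrays limits the precision.

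Mouse numbers were checked as pairs. Same-numbered arrays of sham and HDM deviated together with correlations from -0.14 to 0.14 in back skin and from -0.07 to 0.11 in ear. For same-numbered arrays of back skin and ear they ran from -0.11 to 0.04 in sham and from -0.08 to 0.14 in HDM mice. Same-numbered arrays were not taken as pairs. No label gives separate animals for back skin and ear, so the p-values measure the spread between these samples. The labels and the table give no scan date or batch.

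Genes were named by rule: the 3 members, all receptor genes and locus neighbours, per list the largest called differences at each site and those said not to pass, and the 5 genes most like each member. Jak2, Stat3, Tyk2, Ivl and Osm were named with their values known. Lists cover 11 cell types. Krt6a, Krt6b, Areg, Flg, Calml5 and the markers Cd68, Ly6g, Trac and Pdgfra were not analysed here. The members and lists were chosen with earlier results of these data known. Alternatives are listed in the closing section.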

Additional observations from a re-analysis of the deposited data

Results flagged for a closer look

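The HDM effect differed between ear and back skin for 2 of the 8 cytokine and receptor genes, where 10.1% of all rows were called. For Il19 it was higher in ear by 3.83 on the log2 scale (limma adjusted p = 0.0137), with a rise at both sites. For Il20 it was higher in ear by 2.44 (adjusted p = 0.000378), where back skin fell and ear was not called, and by 1.08 with values under background lifted to it. Il10rb had 2 arrays that stood apart from the other 7 of their group: sham back mouse 7 at 10.81 and sham ear mouse 4 at 9.20. These were 2 of 32 groups examined, and chance alone flags about 1 group in 20.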

How the results depend on the processing

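For the 3 cytokines 15 comparisons were made, of which 10 were called. All 15 kept their direction and their side of the threshold with dim rows left out, array medians made equal, mouse number as a replicate block, agent and mouse number as a random block, and sham back mice 1 and 2 left out. The same held for the 12 comparisons of 2 groups with only the 16 arrays compared and with exact permutation tests. Under the replicate block Il19 in back skin kept 2.50 (limma adjusted p = 0.0198), and the block changed no call of the 3 genes. Of the arrays 1, 1, 0 and 1 of 8 correlated best with their own number.

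Raising values under background to it changed 5 of 15: Il19 in back skin (1.51, adjusted p = 0.196) and Il24 in back skin (1.18, adjusted p = 0.122) lost the call. Il20 in ear gained it (-0.45), and Il20 between the HDM groups lost it (0.145). In ear the lifted value mixes Il20 with the difference of backgrounds, since Il4, below background on every array, differed by -0.38 when lifted. Il19 between the sham groups turned to 0.48, which is the difference of the 2 backgrounds, since both groups were replaced by them. With only the 16 arrays compared as well, an alternative added after seeing the data, Il19 in back skin was called (1.51, adjusted p = 0.00204), Il24 in back skin was not (1.18), Il20 in ear was called (-0.45), Il20 between the HDM groups was not (0.145), and Il19 and Il24 between the sham groups were both 0.48, again the difference of backgrounds.

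Leaving out 1 array at a time, Il20 in ear ran from -0.42 to 0.0068 and Il24 between the HDM groups from 0.93 to 1.63, and the other 13 kept their calls. Il19 in back skin ran from 2.27 to 2.67 and Il24 from 1.67 to 2.15. Among receptor results added after seeing the data, uncalled values changed sign for Il10rb with array medians made equal (-0.0025 between effects, 0.036 between sham groups) and for Il22ra2 with values raised (-0.10 between effects). Left-out arrays did so for Il10rb between HDM groups (-0.081 to 0.14) and sham groups (-0.13 to 0.029), Il22ra1 in ear (-0.16 to 0.0068) and Il22ra2 in ear (-0.32 to 0.016). Low signal limits Il20 at both sites and both Il19 and Il24 in back skin.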
